A study of Homo sapiens with 14 samples.

Results

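The genes described are 8 small nuclear RNA (snRNA) genes that RNA polymerase II transcribes: RNU4-1 and RNU4-2 (U4), RNU5A-1 and RNU5B-1 (U5), RNU11 (U11), RNU12 (U12), RNU4ATAC (U4atac) and RNU7-1 (U7). They were taken by name from the GENCODE annotation of hg38, without their related pseudogenes, and are 8 of 62062 annotated genes on chromosomes 1 to 22 and X. A gene was given a peak where the centre of a deposited peak lay within 2 kb of its transcription start site (TSS). The measurement is ChIP-seq with the Proteintech antibody against ZNF143 in ZNF143-FKBP12F36V HEK293T cells. HEK293T is a human embryonic kidney line, and these cells carry an inducible degron on ZNF143 and are labelled as the clone HEK_CloneZD29. Both groups share this genotype. One group had no treatment (4 samples) and the other received 0.5 µM dTAG-V1, the small molecule that sends the tagged protein to degradation, for 30 min (4 samples). The authors deposited 1 peak list per group, with 20429 peaks for the untreated cells and 35287 for the dTAG-V1 cells. Peak names of the untreated cells mention DMSO, but the labels say that these cells had no treatment and were followed. The lists hold no expression, so that neither the cell type nor the loss of ZNF143 could be checked in them, and the 6 CTCF samples of the series were not analysed here. The paper reports that the Proteintech antibody cross-reacts with CTCF. It also reports that the signal of this antibody at CTCF sites stayed and grew stronger once ZNF143 was depleted. A peak in these lists is therefore not by itself a site of ZNF143 binding.

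U4 and U5 are RNA components of the major spliceosome, and U4 pairs with U6 until the spliceosome is activated. U11, U12 and U4atac belong to the minor spliceosome, which removes a rare class of introns. U7 guides the processing of the 3′ ends of replication-dependent histone mRNAs. Promoters of snRNA genes have a proximal sequence element (PSE), which the SNAPc complex binds, and a distal sequence element further upstream, which often holds an octamer for POU2F1 and a Staf binding site (SBS) for ZNF143.

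The distal stretch of all 8 genes is shown because it holds the elements on which the summits are compared. Each run is the 80 bases from 250 to 171 bp upstream of the TSS, read from hg38 in the direction of transcription. Capitals mark the octamer match (ATGCAAAT on either strand, at most 1 mismatch) and the 9-base core of the best SBS match within 50 bp of it. The SBS match is the better one of both matrices described below. No SBS match lay near the octamer in RNU7-1, where only the octamer is in capitals.
RNU4-1 (chr12:120293408-120293487, minus strand): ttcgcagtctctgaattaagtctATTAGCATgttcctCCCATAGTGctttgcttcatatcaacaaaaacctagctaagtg
RNU4-2 (chr12:120292074-120292153, minus strand): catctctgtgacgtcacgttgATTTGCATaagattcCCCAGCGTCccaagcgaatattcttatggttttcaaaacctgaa
RNU5A-1 (chr15:65295801-65295880, plus strand): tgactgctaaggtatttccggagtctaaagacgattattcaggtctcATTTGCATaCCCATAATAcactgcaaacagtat
RNU5B-1 (chr15:65304427-65304506, plus strand): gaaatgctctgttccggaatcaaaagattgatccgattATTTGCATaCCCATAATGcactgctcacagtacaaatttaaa
RNU11 (chr1:28648350-28648429, plus strand): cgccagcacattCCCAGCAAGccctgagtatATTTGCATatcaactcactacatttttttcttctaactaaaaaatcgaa
RNU12 (chr22:42614994-42615073, plus strand): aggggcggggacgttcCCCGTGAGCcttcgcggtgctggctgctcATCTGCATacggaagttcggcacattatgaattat
RNU4ATAC (chr2:121530631-121530710, plus strand): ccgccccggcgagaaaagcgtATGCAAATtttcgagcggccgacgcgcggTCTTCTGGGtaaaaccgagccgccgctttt
RNU7-1 (chr12:6943566-6943645, plus strand): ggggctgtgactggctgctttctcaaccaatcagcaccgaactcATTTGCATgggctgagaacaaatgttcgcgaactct

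The octamer was the same 8 bases with no mismatch in 6 of the 8 genes, and with 1 mismatch in RNU4-1 and RNU12. In RNU5A-1 and RNU5B-1 the SBS core follows the octamer directly after a single base. In RNU4-1 and RNU4-2 it also lies on the TSS side of the octamer. In RNU11 and RNU12 the SBS core lies further from the TSS than the octamer. In RNU4ATAC both elements are turned around: the octamer reads along the gene strand and the SBS core along the other.

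All 8 snRNA genes had a peak in both lists. At each gene the peaks of both lists overlapped by at least 78.9% of the wider one. Of all annotated genes, 17.5% had a peak in the untreated list, 21.7% in the dTAG-V1 list and 15.6% in both. For the 19970 protein-coding genes the shares were 36.0%, 42.8% and 32.8%. The 1876 other genes annotated as snRNA had a peak in 4.90%, 7.68% and 4.32% of cases. Among them, the 285 pseudogenes related to the 8 genes had an untreated peak in 13 cases and a dTAG-V1 peak in 24. Closer relatives had higher shares. Of 39 other RNA polymerase II genes of snRNA type, 69.2% had an untreated peak and 71.8% a dTAG-V1 peak. Of 9 genes with a type 3 promoter for RNA polymerase III, 88.9% had a peak in each list. Each group has 1 list with no values per replicate, so that presence, distance and rank are descriptions without a test.

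**Figure D1:**
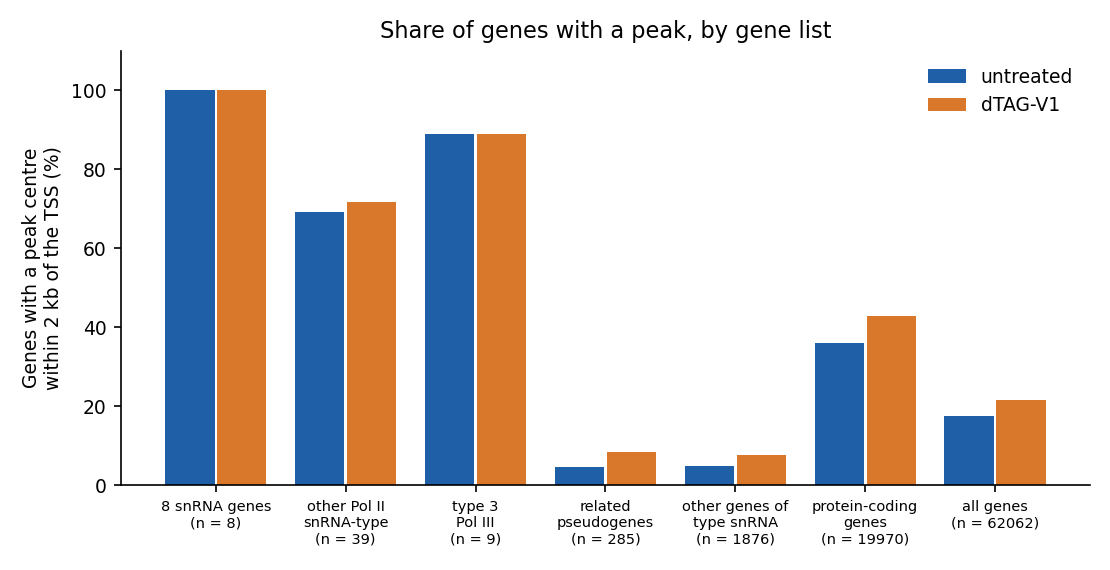
Share of genes (%, y axis) with a peak centre within 2 kb of the TSS in the untreated list (blue) and the dTAG-V1 list (orange), by gene list (x axis, with the number of genes). The 8 snRNA genes stand at 100% in both lists, against 4.90% and 7.68% of other genes annotated as snRNA. The other RNA polymerase II genes of snRNA type stand at 69.2% and 71.8%, and the type 3 genes at 88.9% in both lists.

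In 7 of the 8 genes the untreated summit, the position of highest signal in a peak, lay between 204 and 151 bp upstream of the TSS, with a median of 169 bp. With dTAG-V1 the summits of the same 7 genes lay between 207 and 136 bp upstream, with a median of 157 bp. RNU7-1 stood apart, with its summit downstream of the TSS in both lists. Untreated summits of the 7188 protein-coding genes with a peak had a median of 28 bp upstream, and 356 of them (4.95%) lay in the stretch from 204 to 151 bp upstream. The limits of this stretch are the outermost summits of the 7 genes themselves, with RNU7-1 left out. All 7 lie in it by definition, so that the share is a description and no background for them.

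**Figure D2:**
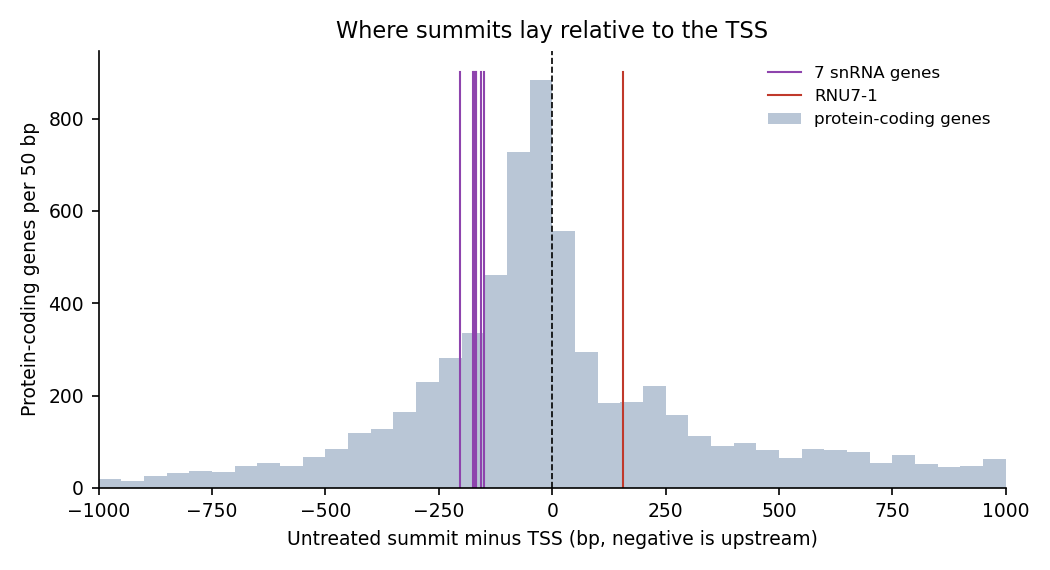
Distance of the untreated summit from the TSS (x axis, bp, negative is upstream) for protein-coding genes (grey bars, number of genes per 50 bp) and for the 8 snRNA genes (vertical lines). The 7 purple lines lie between 204 and 151 bp upstream, whereas the red line of RNU7-1 lies 156 bp downstream.

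The U4 genes lie next to each other on chromosome 12, on the minus strand, with their TSSs 1334 bp apart. RNU4-1 (chr12:120293097-120293237) had its untreated summit 157 bp upstream, at rank 815 of its list, with a fold enrichment of 14.0 and a −log10 q-value of 4197. With dTAG-V1 the summit lay 155 bp upstream, at rank 585, with a fold of 12.1 and a −log10 q of 1860. RNU4-2 (chr12:120291763-120291903) had its untreated summit 169 bp upstream at rank 611, with a fold of 16.6 and a −log10 q of 5421. With dTAG-V1 it lay 157 bp upstream at rank 267, with a fold of 17.5 and a −log10 q of 3251. The rank orders peaks within 1 list from the highest score, whereas the values of fold and q-value depend on the depth of each list, which is unknown, and are given side by side only. RNU4-2 thus ranked ahead of RNU4-1 in both lists. Each gene also lies within 2 kb of the peak of the other, and the peak whose summit was nearest the TSS was taken. Their RNAs are 97.2% identical, with a longest shared run of 50 bases, so that reads inside the genes may be split between the copies or dropped by a mapping filter. Their 250 bases upstream are 51.7% identical, with a longest shared run of 8 bases, and both summits lie in that stretch.

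The U5 genes lie on chromosome 15. RNU5B-1 (chr15:65304677-65304792) was the best-ranked of the 8 genes in the untreated list, at rank 320, with its summit 172 bp upstream, a fold of 31.8 and a −log10 q of 8567. With dTAG-V1 it ranked 251, with its summit 154 bp upstream, a fold of 27.3 and a −log10 q of 3369. RNU5A-1 (chr15:65296051-65296166), which lies inside PARP16 on the opposite strand, ranked 829 with its summit 151 bp upstream, a fold of 29.3 and a −log10 q of 4123. In the dTAG-V1 list it ranked 729, with its summit 136 bp upstream, a fold of 22.4 and a −log10 q of 1449. The RNAs of this pair are 94.0% identical and their upstream stretches 66.7%, with a longest shared upstream run of 17 bases. Both genes carry the octamer with an SBS core right after it, and RNU5B-1 stood 509 ranks ahead of RNU5A-1 in the untreated list.

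The 3 genes of the minor spliceosome were also among the highest peaks. RNU12 (chr22:42615244-42615393) ranked 501 untreated and 143 with dTAG-V1, where it was the best-ranked of the 8 genes. Its summit lay 204 and 207 bp upstream, with a fold of 29.3 and 28.8 and a −log10 q of 6329 and 4517. RNU11 (chr1:28648600-28648733) ranked 950 and 367, with its summit 168 and 165 bp upstream, a fold of 22.4 and 23.8 and a −log10 q of 3597 and 2647. RNU4ATAC (chr2:121530881-121531007), inside CLASP1 on the opposite strand, ranked 1109 and 1031. Its summit lay 174 and 160 bp upstream, with a fold of 29.1 and 20.7 and a −log10 q of 2878 and 846.

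Peaks at RNU11 and RNU12 are shared with a divergent protein-coding gene. The TSS of TAF12, a subunit of TFIID, lies 309 bp upstream of RNU11, and the untreated summit lay 141 bp upstream of TAF12. The TSS of POLDIP3 lies 282 bp upstream of RNU12, and the untreated summit lay 78 bp upstream of POLDIP3, closer to it than to RNU12. These summits therefore cannot be assigned to 1 gene of each pair by position.

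RNU7-1 (chr12:6943816-6943878) lies within C12orf57, whose TSS is 838 bp upstream on the same strand. It also lies within a long noncoding RNA gene on the opposite strand, whose TSS is 814 bp downstream of that of RNU7-1. The untreated peak of RNU7-1 ranked 5767, with a fold of 5.59 and a −log10 q of 42.7, and its summit lay 156 bp downstream of the RNU7-1 TSS. In the dTAG-V1 list the peak ranked 2473, with a fold of 7.06, a −log10 q of 82.5 and a summit 62 bp downstream. The untreated peak was 1265 bp wide and reached from 127 bp upstream to 1137 bp downstream. The TSS of the noncoding RNA gene also lies inside it, so that the peak cannot be assigned to RNU7-1 alone by position. The other 7 untreated peaks were 565 to 827 bp wide, and the median of the whole list was 386 bp. The untreated peak of RNU7-1 thus ends short of its octamer, which lies 206 to 199 bp upstream, whereas the dTAG-V1 peak reaches 285 bp upstream and covers it. RNU7-1 was the lowest-ranked of the 8 genes with and without treatment.

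**Figure D3:**
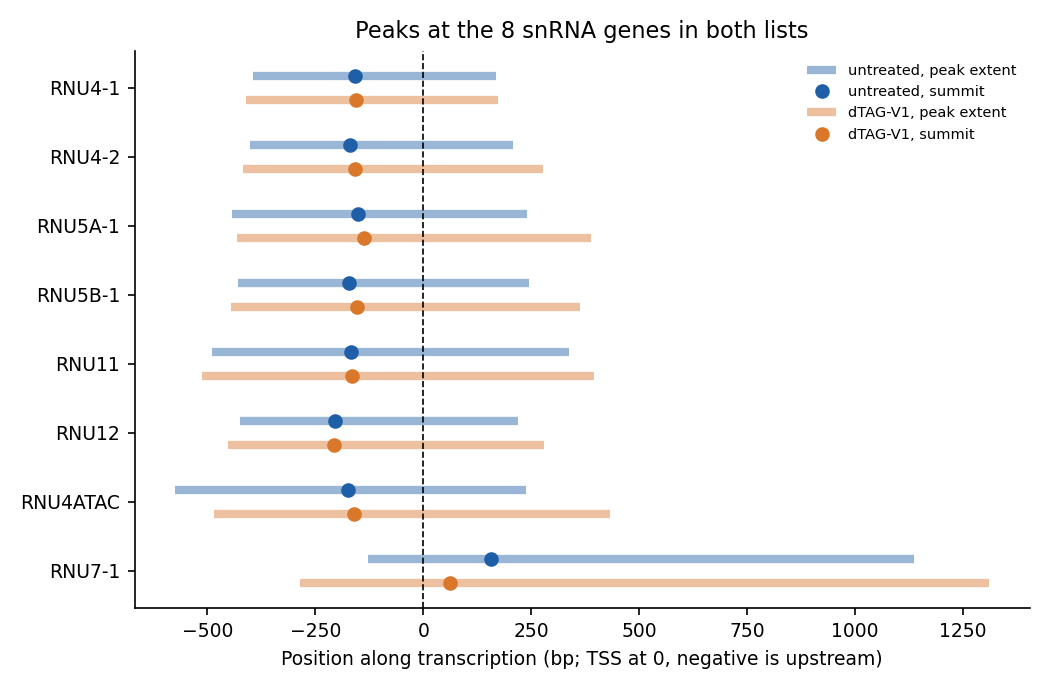
Extent (bars) and summit (points) of the peak at each of the 8 snRNA genes (y axis) along the direction of transcription (x axis, bp, TSS at 0), in the untreated list (blue) and the dTAG-V1 list (orange). Summits of 7 genes lie 207 to 136 bp upstream, and those of RNU7-1 lie 156 and 62 bp downstream.

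Ranks of all 8 genes were better in the dTAG-V1 list than in the untreated list, although that list is longer. The ratio of the dTAG-V1 rank to the untreated rank ran from 0.285 for RNU12 to 0.93 for RNU4ATAC. It was 0.386 for RNU11, 0.429 for RNU7-1, 0.437 for RNU4-2, 0.718 for RNU4-1, 0.784 for RNU5B-1 and 0.879 for RNU5A-1. The ratios of RNU5B-1, RNU5A-1 and RNU4ATAC lay within the middle range of other peaks, and those of RNU12, RNU11, RNU4-2 and RNU4-1 below it. That range comes from the 783 other untreated peaks ranked 320 to 1109, all of which overlapped a dTAG-V1 peak: 48.5% of them had a better rank, with a median ratio of 1.01 and quartiles of 0.777 and 1.24. Of the 996 other untreated peaks within 500 ranks of RNU7-1, 62.3% overlapped a dTAG-V1 peak, and 53.0% of these had a better rank there. Ranked by fold enrichment in place of the score, 7 of the 8 genes still had a better rank with dTAG-V1, and RNU4ATAC went from 1054 to 1082. A better rank by fold with dTAG-V1 was also found for 55.7% of 767 protein-coding genes with an untreated peak of score ranks 320 to 1109. By fold, RNU4-1 ranked 2685 in the untreated list and RNU4-2 ranked 2395.

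**Figure D4:**
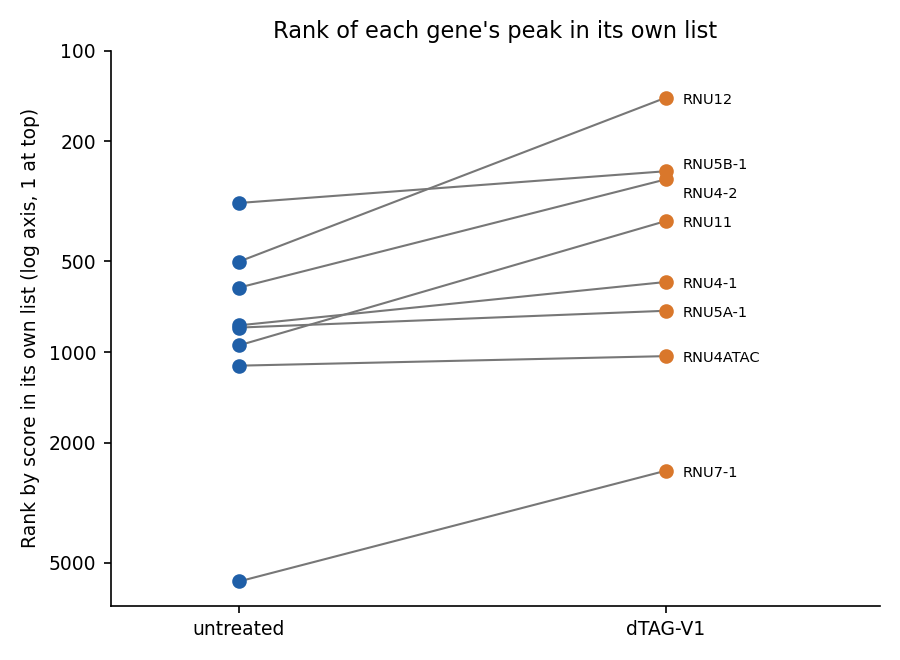
Rank of the peak of each of the 8 snRNA genes by score in its own list (y axis, log axis with rank 1 at the top end), with lines that join the untreated list (blue) and the dTAG-V1 list (orange). All 8 lines go up, from 320 to 251 for RNU5B-1 and from 501 to 143 for RNU12.

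The peaks of the 8 genes were also wider in the dTAG-V1 list, by 20 to 331 bp. Other peaks widened too: 77.4% of the 783 peaks ranked 320 to 1109 did, with a median of 38 bp, and 73.3% of those found near the rank of RNU7-1, with a median of 110 bp. The downstream edge moved further into and past the gene in all 8 cases, by 5 bp at RNU4-1 to 194 bp at RNU4ATAC, with a median of 94 bp. The upstream edges moved further upstream in 6 genes and towards the TSS at RNU5A-1 and RNU4ATAC. Among 764 protein-coding genes with an untreated peak ranked 320 to 1109, the downstream edge moved further downstream in 69.9%. The median was 15 bp, with quartiles of −4 and 42 bp. RNU7-1, with untreated rank 5767 and an edge shift of 173 bp, lies outside these ranks but counts in the median of the 8 genes. The medians are therefore not matched in rank. Summits moved by at most 3 bp at RNU4-1, RNU11 and RNU12, and by 12 to 18 bp towards the TSS at RNU4-2, RNU5A-1, RNU5B-1 and RNU4ATAC. At RNU7-1 the summit moved by 94 bp, also towards the TSS. Without regard to direction, the median summit shift was 3 bp for the other untreated peaks ranked 320 to 1109, and 28 bp, with an upper quartile of 72 bp, for those near the rank of RNU7-1.

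The promoter elements were then searched for in the genome sequence. The PSE was sought as TCACCNTNA on the gene strand, starting 80 to 40 bp upstream of the TSS. With at most 1 mismatch it was found in 6 of the 8 genes, against 3.66% of protein-coding genes and 7.36% of other genes annotated as snRNA. Closer relatives had it in 17.9% of cases (39 other RNA polymerase II genes of snRNA type) and 66.7% (9 genes with a type 3 promoter for RNA polymerase III). Of the 39 genes, 31 are RNU1 or RNVU1 genes, so that their shares mostly describe this family. RNU4-2, RNU5B-1, RNU11 and RNU7-1 matched with no mismatch, RNU4-1 and RNU5A-1 with 1, and RNU12 and RNU4ATAC with 2. With at most 2 mismatches the PSE was found in 8 of 8 genes, 89.7% of the 39 genes and 88.9% of the type 3 genes. It was then also found in 31.5% of protein-coding genes and 46.6% of other genes annotated as snRNA. The octamer, with at most 1 mismatch on either strand from 400 bp upstream to 50 bp downstream, was found in 8 of 8 genes, against 23.5% of protein-coding genes, 46.5% of other genes annotated as snRNA, 30.8% of the other snRNA-type genes and 77.8% of the type 3 genes. With no mismatch it was found in 6 of 8, against 2.43% of protein-coding genes, 4.90% of other genes annotated as snRNA, 10.3% of the other snRNA-type genes and 66.7% of the type 3 genes. A match is a string of letters and does not show that a factor was bound.

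The SBS was searched for with a matrix learned from 2000 untreated peaks more than 5 kb from the genes of the lists used here. At p 1e-04 per position it matched in 7 of 8 genes, all but RNU7-1, in a stretch where 67.1% of protein-coding genes also matched. At RNU5A-1 and RNU4ATAC this match was not the core marked in the sequences, and its centre lay 351.5 and 257.5 bp upstream of the TSS. The marked cores of these genes missed the threshold with this matrix (p 0.00012 and 0.00014). At p 1e-05 none of the 8 genes matched, against 23.3% of protein-coding genes. Within 50 bp of the untreated summit, 3 of the 8 genes had a match at p 1e-04 (RNU4-2, RNU5B-1 and RNU12). The share was 37.6% over all untreated peaks and 91.8% over the highest 10% by score, from which the matrix was largely learned, so that the last share is no independent background. Within 100 bp, 7 of the 8 genes had a match, all but RNU5A-1. The share within 100 bp was 46.4% over all untreated peaks and 94.3% over the highest 10% by score. The 7 genes include RNU7-1, with a match 62.5 bp from its summit, downstream of the TSS.

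A second form of the SBS was learned from the high untreated peaks that hold no match of the first matrix. Its most informative bases are CCCA and a C further on. This matrix was added after the data had been seen. With either matrix at p 1e-04, 7 of the 8 genes had an SBS match within 50 bp of the octamer, against 3.28% of protein-coding genes, 4.10% of other genes annotated as snRNA and 7 of the 39 other RNA polymerase II genes of snRNA type. The pairing is not particular to the 8 genes, since 6 of 9 genes with a type 3 promoter for RNA polymerase III also had it. The second matrix was the better one at RNU5B-1 (p 4e-07), RNU4-1 (p 8.5e-07), RNU11 (p 2.7e-06), RNU4ATAC (p 5.2e-06) and RNU5A-1 (p 8.2e-06). The first matrix was the better one at RNU12 (p 1.5e-05) and RNU4-2 (p 1.9e-05). In RNU7-1 the best match beside the octamer had p 0.0057, the weakest of the 8 genes. These are p-values of a sequence match against the base composition of the genome, not of binding.

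RNU5B-1 and RNU7-1 are shown in full because they are the highest and the lowest of the 8 genes in the untreated list. Both runs hold 250 bases before the TSS and the first 20 bases of the transcript, with the octamer, the SBS core where there is one, and the PSE in capitals.
RNU5B-1 promoter (chr15:65304427-65304696, plus strand): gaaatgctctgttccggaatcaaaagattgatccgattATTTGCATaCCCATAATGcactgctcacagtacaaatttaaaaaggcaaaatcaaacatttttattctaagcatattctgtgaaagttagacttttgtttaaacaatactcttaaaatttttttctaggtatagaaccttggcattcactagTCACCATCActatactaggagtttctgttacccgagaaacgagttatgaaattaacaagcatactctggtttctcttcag
RNU7-1 promoter (chr12:6943566-6943835, plus strand): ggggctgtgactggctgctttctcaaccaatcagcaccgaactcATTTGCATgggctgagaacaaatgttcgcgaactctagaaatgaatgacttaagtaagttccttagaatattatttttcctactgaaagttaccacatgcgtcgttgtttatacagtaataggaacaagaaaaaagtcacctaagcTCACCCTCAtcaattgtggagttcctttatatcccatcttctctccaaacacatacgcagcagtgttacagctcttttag

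Both promoters hold the octamer and the PSE without a mismatch, at like distances from the TSS. The PSE of each starts 60 bp upstream, and the octamer starts 212 bp upstream in RNU5B-1 and 206 bp upstream in RNU7-1. Of the capitals in RNU5B-1, only the SBS core has no counterpart in RNU7-1. Both genes were picked for their ranks, and whether the SBS bears on the rank was not tested.

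Summits of the 7 genes with an SBS match lay on its TSS side in both lists, between the SBS and the PSE. In the untreated list the summit lay 20.5 bp (RNU4ATAC) to 67.5 bp (RNU11) from the centre of the match, with a median of 40.5 bp. In the dTAG-V1 list the distances were 24.5 bp (RNU12) to 70.5 bp (RNU11), with a median of 54.5 bp. In the 1701 peaks of the highest 10% of the untreated list that had a match of the first matrix at p 1e-05 within 100 bp, the median distance was 7.5 bp, with quartiles of 5.5 and 18.5 bp. These peaks were chosen for a match close to the summit and the 7 genes for a match close to the octamer, so that the distances are given side by side and not compared.

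**Figure D5:**
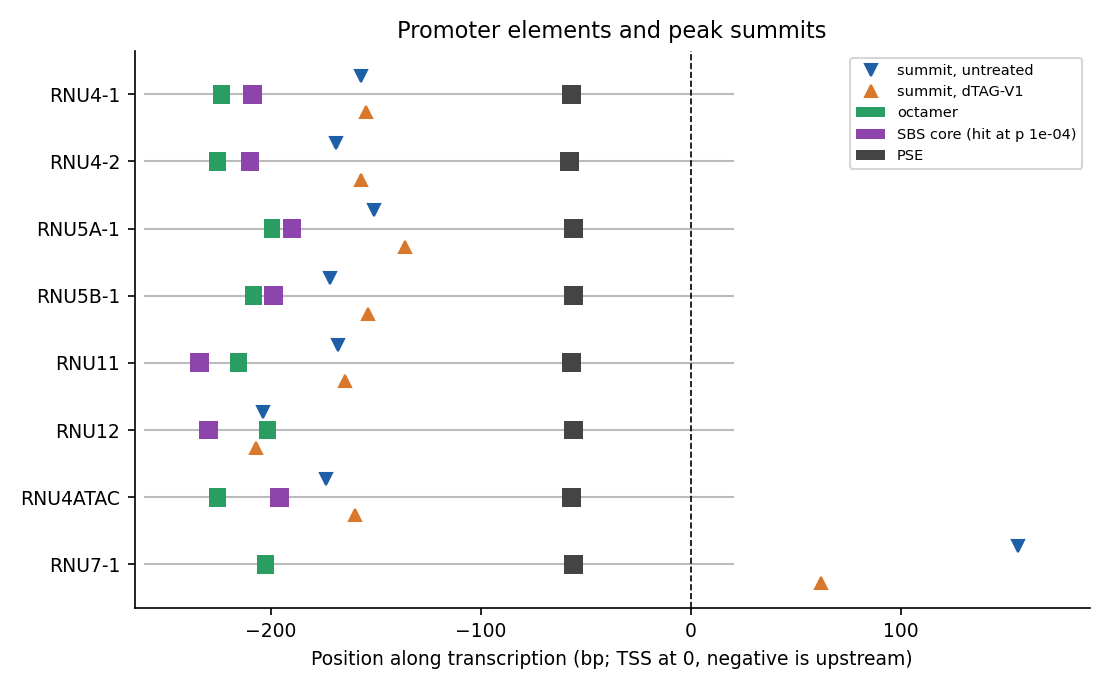
Positions of the octamer (green), the SBS core with a match at p 1e-04 (purple) and the PSE (black) along the direction of transcription (x axis, bp, TSS at 0) at the 8 snRNA genes (y axis), with the summits in the untreated list (blue, pointing down) and the dTAG-V1 list (orange, pointing up). The SBS core is from the better match of both matrices, and the second matrix was added after the data had been seen. In 7 genes the summits lie between the SBS core and the PSE, and RNU7-1 has no SBS core by its octamer and summits downstream of the TSS.

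A matrix for CTCF, the insulator protein, was learned from dTAG-V1 peaks that overlap no untreated peak, also after the data had been seen. None of the 8 genes had a CTCF match at p 1e-05 within 50 bp of its summit in either list. The share was 12.2% over all untreated peaks, 32.3% over all dTAG-V1 peaks and 41.5% over the dTAG-V1 peaks without an untreated counterpart, from which the matrix was learned. Further from the summit, the same 3 of the 8 genes held a match inside the peak of both lists (37.5%), beside 21.0% of all untreated and 39.2% of all dTAG-V1 peaks. A wider peak has more room for a match, and these shares are not matched in width. The peaks of the 8 genes were 565 to 1265 bp wide untreated and 585 to 1596 bp with dTAG-V1, against list medians of 386 and 409 bp. The matches lay 324 bp upstream at RNU12, 208 bp downstream at RNU4ATAC and 893 bp downstream at RNU7-1.

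Other genes with promoters of this kind had untreated summits at a like median distance, with a wider spread. Of 39 other RNA polymerase II genes of snRNA type, 27 had an untreated peak, all with an upstream summit and with a median of 169 bp. These summits ran from 305 to 28 bp upstream, with quartiles of 188 and 156 bp. Of the 27 genes, 21 are RNU1 or RNVU1 genes, near-identical copies whose values are uncertain. In the dTAG-V1 list 28 of the 39 genes had a peak, with an upstream summit in 18 of the 28. The furthest summit lay 1376 bp downstream, at RNVU1-17, which ranked 21127 there and had no untreated peak. The U5 variant genes resembled RNU5A-1 and RNU5B-1. RNU5D-1 ranked 689 and 484 in the untreated and the dTAG-V1 list, RNU5F-1 ranked 953 and 737, and RNU5E-1 ranked 1286 and 893. Their untreated summits lay 170, 157 and 176 bp upstream. SNORD118, which encodes the U8 RNA of ribosome maturation, ranked 1088 and 868 with its untreated summit 175 bp upstream. Of 9 genes with a type 3 promoter for RNA polymerase III, which shares the PSE, 8 had a peak in both lists, with a median summit 159 bp upstream in the untreated list. Untreated summits of these 8 genes ran from 236 bp upstream to 140 bp downstream. Among them, RNU6-1 and RNU6-2 for U6, the partner of U4, ranked 628 and 602 untreated and 104 and 397 with dTAG-V1. RNU6ATAC, the partner of U4atac, had no peak in either list.

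Genes for proteins that work with these RNAs were counted beside the background of protein-coding genes, 36.0% of which had an untreated peak and 42.8% a dTAG-V1 peak. The lists are short and were not tested. All 5 U4/U6 protein genes had a peak in both lists, led by PRPF31 at untreated rank 60 and PRPF4 at 665. Of 8 U5 protein genes, 6 had an untreated peak and 7 a dTAG-V1 peak, led by DDX23 at untreated rank 20. Of 8 U11/U12 protein genes, 7 had a peak in both lists, led by ZMAT5 at untreated rank 40. Of the U7-specific proteins, LSM10 had a peak at rank 736 and 710, and LSM11 had none. Of 14 Integrator genes, whose complex cleaves the 3′ ends of snRNA transcripts, 9 had an untreated peak and 10 a dTAG-V1 peak, led by INTS9 at untreated rank 86.

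Of 8 genes for factors of the snRNA promoter, 6 had an untreated peak and 7 a dTAG-V1 peak. SNAPC3 and SNAPC4, subunits of SNAPc, ranked 538 and 2100 untreated and 521 and 1841 with dTAG-V1. Of the other SNAPc subunits, SNAPC5 ranked 7417 and 4021, SNAPC2 had only a dTAG-V1 peak and SNAPC1 had none. POU2F1, the octamer factor, ranked 9032 and 14214, and TBP ranked 3429 and 6091. ZNF143 itself had a peak with its summit 682 bp downstream of the TSS, at rank 524 untreated and 2024 with dTAG-V1. The ranks of ZNF143, POU2F1 and TBP were thus worse with dTAG-V1, whereas those of SNAPC3, SNAPC4, SNAPC5 and the 8 snRNA genes were better. Of the 783 untreated peaks ranked 320 to 1109 outside the snRNA genes, 48.5% had a better rank with dTAG-V1.

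The genes closest to RNU5B-1 in their pair of ranks, by the distance of the log10 ranks over 6559 protein-coding genes with a peak in both lists, were NUP153 (325 and 243), CDK8 (330 and 263) and GPR108 (311 and 264). Their untreated summits lay 105, 251 and 373 bp upstream of the TSS.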

How the data were processed

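The authors mapped the reads to hg38 with bwa mem, filtered for uniquely mapped proper pairs and marked duplicates for removal with Picard. Narrow peaks were called by the authors with MACS2 at a q-value of 0.01, and those on canonical chromosomes outside the blacklist were kept. No control library is named for the call, and the methods keep untreated peaks found in each of the 4 replicates but dTAG-V1 peaks found in any of the 4. Whether this was applied to the deposited lists is not given in the sources used here. If so, the lists differ in how they were filtered, which bears on their lengths and on every share and rank set side by side. The deposited score is the integer that MACS2 wrote from the q-value, the deposited fold enrichment is a ratio over local background at the summit, and the deposited −log10 q-value comes from the same call. The depth of the libraries is unknown, no column of per-sample values was left unused (0), and the lowest −log10 q was 2.01 in both lists.

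The genes, lists and searches were chosen with earlier results of these data known. TSSs came from GENCODE release 44, with the TSS base counted as 0. Peaks were ranked by score within each list, and where several lay near a gene, the peak with the summit nearest the TSS was taken. Named genes were the 8 snRNA genes, the fixed lists (of each protein list the best-ranked) and the 3 genes most like the best-ranked snRNA gene. The SBS matrices span 24 bases, started from the core CCCANNATG and were learned over 10 rounds with a pseudocount of 0.8, from windows of 50 bp around the summit. The second used the windows without a match of the first among 6000 peaks (2053 windows). The CTCF matrix has 19 bases. No comparison of conditions was tested, since each has 1 list. Identities are from global alignments. Python 3.11.15, numpy 2.4.6, pandas 2.3.3, pysam 0.24.0, Biopython 1.88 and matplotlib 3.10.9 were used, and the code was tested on simulated data.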

Additional observations from a re-analysis of the deposited data

How the results depend on the processing

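All 8 genes kept a peak in both lists with a distance of 1 kb, with the distance taken from the summit, with an overlap in place of a distance, with q-values of at most 1e-05 or 1e-10, and with 50% of each peak shared. Within 500 bp, 7 of 8 did, since the centre of the wide peak at RNU7-1 lay further off. The background fell within 500 bp to 13.7% of all genes in the dTAG-V1 list and to 2.35% and 2.99% of other genes annotated as snRNA in the untreated and the dTAG-V1 list. The median distance from the TSS without regard to direction was 168 bp untreated and 156 bp with dTAG-V1 from the summit, and 101 bp and 64 bp from the peak centre. The count of 7 genes with an SBS match became 4 at p 5e-05, 0 at p 1e-05 and 1 with the exact core. Of protein-coding genes, 52.7%, 23.3% and 6.71% matched in these 3 settings. The count of 3 genes with a match within 50 bp of the untreated summit became 0 at p 1e-05, 7 within 100 bp (RNU7-1 among them and RNU5A-1 not) and 5 with either matrix. In these 3 settings, 20.6%, 46.4% and 48.8% of all untreated peaks had a match. The shares were 81.6%, 94.3% and 96% over the highest 10% by score, from which the first matrix was largely learned. No CTCF match near the dTAG-V1 summits (0) became 3 with matches anywhere in the peak, beside 39.2% of all dTAG-V1 peaks, which are not matched in width. Of the single values, 37 moved by less than 1.5 times and 11 by more, 10 of them ranks by fold in place of score and 1 the rank of RNU4-1 with the highest peak in place of the nearest.

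No paired analysis was possible because the lists hold no values per replicate, and leaving out a replicate was not possible for the same reason. Peaks near the threshold depend on depth, which is unknown, whereas those of 7 genes lay far above it.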

Other observations

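The RNU1 and RNVU1 genes, which encode U1 and its variants in the major spliceosome, are given here beside the 8 snRNA genes, without a test. Of the 21 with a peak in both lists, 6 had a better rank with dTAG-V1, and their median rank was 1926 untreated and 1879 with dTAG-V1. Their summits were upstream of the TSS in 21 of 21 cases untreated and in 14 of 21 with dTAG-V1. Among the 7 that changed side, the summit of RNU1-2 went from 155 bp upstream to 250 bp downstream, and that of RNVU1-15 from 189 bp upstream to 155 bp downstream. The U1 genes are near-identical copies, so that reads may be split between them or dropped by the mapping filter, and their values are uncertain. The change of side was also seen outside them, in 2 of the 6 other RNA polymerase II genes of snRNA type with a peak in both lists: RNU2-2P went from 81 bp upstream to 252 bp downstream and SNORD13 from 305 bp upstream to 124 bp downstream. All 6 of these, and 7 of 8 type 3 genes, had a better rank with dTAG-V1, as the 8 snRNA genes did. RMRP, the RNA of RNase MRP, resembled RNU7-1 in its untreated list values, with rank 7895 and a summit 140 bp downstream. In the dTAG-V1 list it ranked 4271 with a summit 18 bp upstream. These genes were singled out after their values had been seen.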
